A study of Mus musculus with 4 samples.

Results

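The 40 genes described here are interferon-stimulated genes, that is, genes whose transcription follows the binding of interferon to its receptor. They were taken by symbol from a list that was drawn up with earlier results of these libraries known, and all 40 were found among the 19491 genes listed in any library. CD45+ immune cells of adult C57BL/6J mice, 8 weeks old, were sorted from the brain or the dura mater on day 3 after photothrombotic injury (PTI; D3), in which a light-activated dye damages vessels of the dura mater, pia mater and brain, or on day 3 after a sham operation (S3). The control libraries are labelled CT and were read as the sham groups. The 4 groups were of this 1 strain, with no genotype or drug named in the labels, and each was 1 single-cell library of the 10× Chromium 3′ v3 kit, with the number of mice in it not given in the sources used here. In that kit each messenger RNA molecule is counted once at its 3′ end through a unique molecular identifier (UMI), so that counts of different genes need no division by length. Since each group was 1 library, the variation among mice is unknown, no test was made, and every 95% interval below (exact Poisson for counts, exact Clopper-Pearson binomial for shares) covers counting error only.

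Interferons are secreted proteins that warn cells of viruses and of damaged or misplaced nucleic acids. Type I interferons act through IFNAR1 and IFNAR2, whose kinases JAK1 and TYK2 start the signal. A complex with STAT2 and IRF9 then binds the interferon-stimulated response element (ISRE) of target promoters, whereas interferon gamma acts mainly at the gamma-activated site (GAS). Among the members, the IFIT proteins, OAS enzymes, MX1, RSAD2 and ISG20 act on viral RNA or virus assembly, BST2 tethers budding virus, IFIH1, DDX58, DHX58 and ZBP1 recognise nucleic acids, and IRF7, IRF9 and STAT2 carry the signal. USP18 and the ubiquitin-like ISG15 are part of the feedback on the pathway, and GBP2, IGTP, IRGM1 and IFI47 are GTPases best known as targets of interferon gamma. In the brain and its coverings these genes are known for a low tone at rest and for activation in microglia and infiltrating leukocytes after infection, injury and with age.

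The promoters of the members were rich in one sequence, which played no part in listing them. RefSeq promoters on GRCm38.p6, each from 250 bases before to 50 bases after a start site, were at hand for 32 members, which have 38 such promoters between them. The core of an ISRE, which was searched as GAAA, any 2 bases and GAAA, occurred on either strand in 21 of the 38 promoters (55.3%), against 1131 of 32851 promoters of all genes (3.44%). The GAS core TTCNNNGAA, likewise read on both strands, occurred in 6 of 38 (15.8%) against 8.30% of all promoters. A match describes the letters in this window and is no measure of binding. Of these, 6 promoters are printed from 200 bases before the start site up to the start, 5′ to 3′ on the strand of the gene, with ISRE core matches in capitals. Isg15, Ifit1, Ifit3, Rsad2 and Oas1a are shown as examples that hold the ISRE core and were more than 2-fold higher at D3 in brain microglia-like cells, as described below. Igtp is shown because it has the same letters and did not share that difference. Other members that were higher there, such as Irf7 and Ifit2, had no ISRE core match.
Isg15: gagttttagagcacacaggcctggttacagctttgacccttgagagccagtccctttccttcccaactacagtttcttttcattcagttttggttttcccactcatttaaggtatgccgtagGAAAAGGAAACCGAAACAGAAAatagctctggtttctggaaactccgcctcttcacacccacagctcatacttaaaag
Ifit1: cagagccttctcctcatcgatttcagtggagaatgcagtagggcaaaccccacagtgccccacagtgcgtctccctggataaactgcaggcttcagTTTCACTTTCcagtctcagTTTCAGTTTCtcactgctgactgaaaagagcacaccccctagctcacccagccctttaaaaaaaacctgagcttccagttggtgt
Ifit3: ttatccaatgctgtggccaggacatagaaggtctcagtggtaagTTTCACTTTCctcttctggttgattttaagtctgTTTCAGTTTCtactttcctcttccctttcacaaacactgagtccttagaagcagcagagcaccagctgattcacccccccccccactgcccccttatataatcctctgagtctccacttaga
Rsad2: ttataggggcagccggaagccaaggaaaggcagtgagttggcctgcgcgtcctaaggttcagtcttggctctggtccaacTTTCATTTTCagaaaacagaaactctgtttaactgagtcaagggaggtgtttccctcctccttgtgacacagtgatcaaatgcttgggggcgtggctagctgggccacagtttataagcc
Oas1a: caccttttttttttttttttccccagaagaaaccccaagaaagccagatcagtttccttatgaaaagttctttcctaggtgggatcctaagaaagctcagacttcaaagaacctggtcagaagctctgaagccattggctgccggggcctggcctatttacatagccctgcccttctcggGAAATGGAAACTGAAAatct
Igtp: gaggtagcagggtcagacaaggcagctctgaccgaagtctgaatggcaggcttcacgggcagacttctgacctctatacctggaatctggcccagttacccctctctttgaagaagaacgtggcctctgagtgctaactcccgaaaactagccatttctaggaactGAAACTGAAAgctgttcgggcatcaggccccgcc
In these stretches Isg15 at chr4:156200819-156201018 (− strand) held 3 overlapping matches beginning 78 bases before the start, and Oas1a at chr5:120907526-120907725 (− strand) held 2, beginning 20 bases before it. Ifit1 at chr19:34640689-34640888 and Ifit3 at chr19:34583329-34583528 (both + strand) held 2 separate matches each. Rsad2 at chr12:26456453-26456652 (− strand) and Igtp at chr11:58199356-58199555 (+ strand) held 1 each.

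All 40 members are protein-coding genes of the GENCODE vM21 annotation (GRCm38) on 14 chromosomes, and 13 of them lie in 5 clusters of members within 100 kb of each other. Ifit2, Ifit3, Ifit3b and Ifit1 span 99316 bases at chr19:34550694-34650009, and Rsad2 and Cmpk2 stand next to each other at chr12:26442746-26479837. Counts of near-identical neighbours are less certain: of the 90-base windows of Ifit3, 35.1% were shared with another gene, mostly Ifit3b, and the share was 30.5% for Ifit3b, 43.4% for Oas1a and 59.0% for Ifi211. Ifi211, Ifi47, Igtp and Irf9 overlap another coding gene on their own strand, so that reads there could be credited to either.

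Cells were placed into classes by 21 fixed marker lists and are called by the list they matched, as in microglia-like. Of 4734, 4795, 5925 and 3515 barcodes in brain S3, dura mater S3, brain D3 and dura mater D3, 3606, 3432, 4383 and 2593 were kept, and 3198, 2950, 3648 and 2207 of these were placed in a class. Droplets that also carried markers of another lineage, between 165 and 213 per library, were left out by a cut chosen after their values had been seen. Library pairs shared between 3 and 11 barcodes. Depth differed, with a median of 8242.5 and 9315 UMIs per kept cell in the S3 libraries of brain and dura mater against 14146 and 14102 in the D3 libraries. In the classes named by a list, all 6 to 10 markers of that list were found in at least 10% of the cells, except 7 of 8 in ILC2-like cells, and no class had markers of another list among its 10 leading genes.

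Taken over all placed cells, the 40 members together made up 2272 UMIs per 1000000 (CPM) in S3 brain, 2520 in S3 dura mater, 2956 in D3 brain and 2742 in D3 dura mater. These totals mix classes whose levels differed several-fold and whose shares of the libraries differed, so the levels are given by class. Plasmacytoid dendritic cell (pDC)-like cells of the S3 dura mater, the cell type known as the main source of type I interferon, stood highest at 6167 CPM [5944, 6395] over 35 cells. Bst2 alone made up 61.1% of their member UMIs. The 20 core type I interferon members, a subset of the 40, did not stand highest there. They held 691 CPM in these cells, against 1280 in border macrophage-like cells of the same library. The other libraries had between 15 and 19 pDC-like cells, too few to be given. For all 40 members together, Ly6C hi monocyte-like cells were at 5232 in S3 brain, 4234 in S3 dura mater, 4313 in D3 brain and 3302 in D3 dura mater. Migratory DC-like cells of brain D3 were at 4299 over 27 cells, of which 3 held 59.5% of member UMIs. Border macrophage-like cells, the resident macrophages of the meninges and vessels, were at 3137 in S3 brain, 4627 in S3 dura mater, 3845 in D3 brain and 4503 in D3 dura mater.

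**Figure D1:**
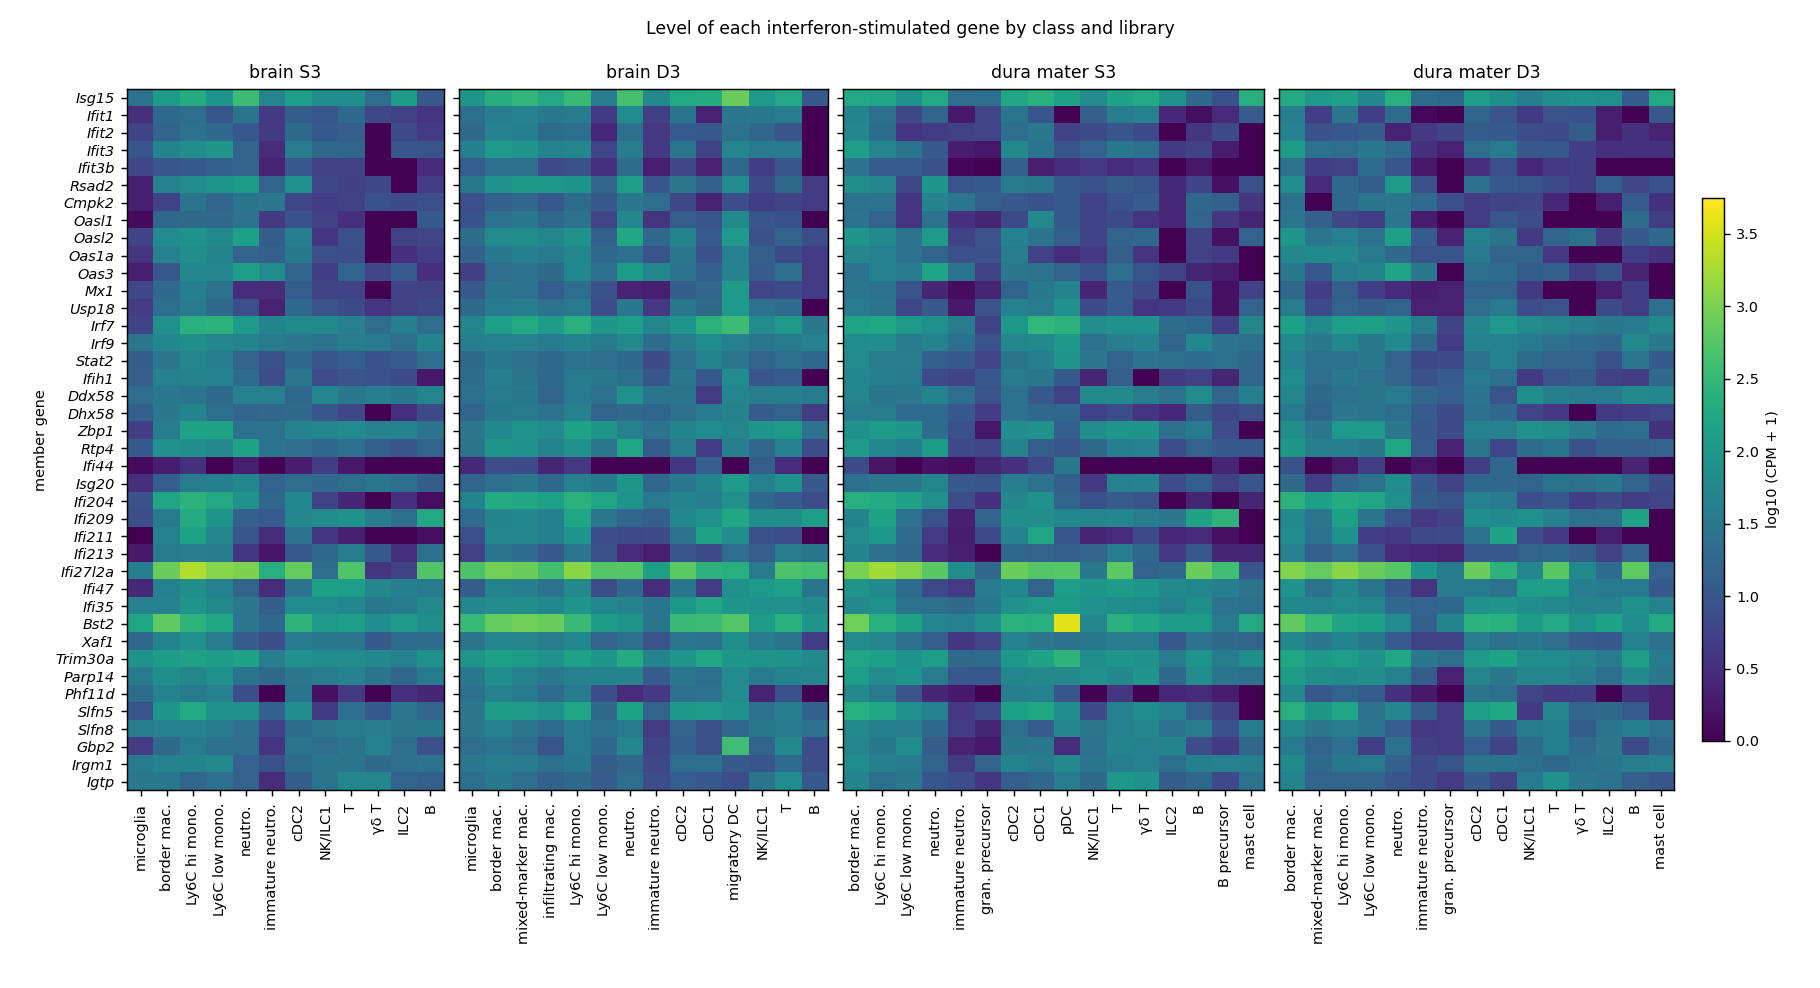
Level of each member (rows) in each class (columns) of the 4 libraries, as log10 of CPM + 1 on a colour scale from 0 (dark) to the highest (yellow). Ifi27l2a and Bst2 stand out in nearly all myeloid classes, with Bst2 at 3767 CPM in pDC-like cells of S3 dura mater, and the column of microglia-like cells is darker in brain S3 than in brain D3.

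At the other end stood the cells early in the granulocyte series. Granulocyte precursor-like cells held 385 CPM in dura mater S3 and 304 in D3, and immature neutrophil-like cells held 803 in S3 brain, 431 in S3 dura mater, 719 in D3 brain and 457 in D3 dura mater. Neutrophil-like cells, their mature form, held 2904, 2106, 3144 and 2354 CPM in the same order, so each library had several times more member RNA per UMI in the mature class. Among lymphoid classes, T-like cells were at 1648, 2348, 2297 and 1822 CPM, B-like cells at 1398, 1773, 1148 and 1654, and NK/ILC1-like cells at 1056, 1039, 1296 and 1168. Gamma-delta T-like cells of brain S3 (703 CPM) and ILC2-like cells (761, 713 and 743 CPM in brain S3, dura mater S3 and dura mater D3) stood near the immature neutrophil-like cells. Microglia-like cells, at 708 CPM in brain S3, were among the lowest of all classes.

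The members did not follow a single order of classes. Ifi27l2a, a small mitochondrial membrane protein induced by interferon, was the most abundant member in Ly6C hi monocyte-like cells, at 2028 CPM in S3 brain, 1673 in S3 dura mater, 1225 in D3 brain and 1208 in D3 dura mater. It made up between 28.4% and 39.5% of all member UMIs there, and between 37.6% and 43.4% in B-like cells. In NK/ILC1-like cells it was only 21.0, 31.4, 33.9 and 53.9 CPM, and in mast cell-like cells 8.60 in S3 and 14.1 in D3 dura mater. Ifi27l2a was thus high in Ly6C hi monocyte-like cells of every library and low in NK/ILC1-like and mast cell-like cells. For B-like cells the value given is a share of member UMIs and not a level.

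Bst2, which holds budding virus at the cell surface, stood apart in pDC-like cells of S3 dura mater, where it reached 3767 CPM [3594, 3947] and 61.1% of all member UMIs. BST2 is a known surface marker of mouse pDCs, and the next highest level of the gene was 879 CPM in the mixed-marker macrophages of brain D3. In border macrophage-like cells it was 659, 822, 733 and 693 CPM in brain S3, dura mater S3, brain D3 and dura mater D3, and in neutrophil-like cells 29.1, 53.0, 87.5 and 63.9. Its levels in border macrophage-like cells lay close together across the 4 libraries, and those in neutrophil-like cells lay far below them.

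Neutrophil-like cells led for a group of RNA-directed effectors. Oas3, which makes the 2-5A signal for RNA decay, was at 126, 154, 118 and 152 CPM in brain S3, dura mater S3, brain D3 and dura mater D3. Rsad2 (viperin) was at 116, 92.3, 127 and 105, and Oasl2 at 132, 101, 178 and 129. Oas3, Oasl2, Rsad2 and Rtp4 were highest in neutrophil-like cells in all 4 libraries. Of the GTPases, Igtp was highest in T-like cells in all 4 libraries, at 51.6 CPM in S3 brain, 100 in S3 dura mater, 66.8 in D3 brain and 77.6 in D3 dura mater. Ifi47 stood at 131, 95.6, 104 and 121 CPM in NK/ILC1-like cells and at 125, 118, 137 and 123 in T-like cells, values that lay close together. Irgm1 did not follow them and was highest in border macrophage-like cells in 3 libraries and in Ly6C low monocyte-like cells in brain S3.

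Single classes carried other members. Ifi209, a DNA-binding member of the p200 family, was at 184, 142, 123 and 144 CPM in B-like cells and at 203, 146, 159 and 136 in Ly6C hi monocyte-like cells. In S3 dura mater it stood highest in B precursor-like cells, where it made up 25.6% of the 2193 member UMIs of 171 cells. Ifi211 of the same family was at 160 CPM in cDC1-like cells of S3 dura mater, 146 in D3 brain and 149 in D3 dura mater. Gbp2 reached 392 CPM in the migratory DC-like cells of brain D3 and no more than 65.6 in any other class. Isg15, the ubiquitin-like modifier, was also highest there, at 781 CPM [681, 891], and Irf7, the transcription factor that amplifies type I interferon production, stood at 371. In mast cell-like cells Isg15 was at 232 CPM in S3 and 188 in D3 dura mater, the first member by UMIs in S3 and the second, after Bst2, in D3. Counting each member by the class in which it stood highest, Ly6C hi monocyte-like cells led for 17 members in brain S3, migratory DC-like cells for 12 in brain D3, and border macrophage-like cells for 14 in S3 and 19 in D3 dura mater. The leading class was clear of the second by non-overlapping intervals for only 14 members in brain S3, 17 in brain D3, 17 in S3 and 18 in D3 dura mater. The values of the migratory DC-like cells rest on 27 cells, of which 3 held 59.5% of member UMIs. Without the top 10% of these cells the member level was 1985 CPM.

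With all cells and all UMIs, the brain class with the highest member median of D3 over S3 was microglia-like. Its 414 cells of D3 held 1805 CPM [1767, 1844] of member RNA against 708 [681, 736] in the 367 cells of S3. A member is counted below as higher or lower when its CPM differed at least 2-fold with at least 10 UMIs in the groups together, and it is set beside the share of all genes past the same bounds. In microglia-like cells 24 of 39 members were higher at D3 and 0 lower, beside 7.08% of all genes higher and 4.31% lower. The member median was 1.91 on the log2 scale (quartiles 0.51 and 2.70) beside −0.11 over all 11455 genes, and 35 members lay above 0. With each cell thinned to 2000 UMIs the median was 0.90, below the 0.98 of neutrophil-like cells, so that the order of these classes turned with depth. Microglia are the brain's own parenchymal macrophages. All 10 markers of the class were detected in both libraries, at a summed level of 24206 CPM in S3 and 19441 in D3. Cells were placed in the class by these same markers, so their levels cannot show that it kept its identity.

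Of the antiviral effectors, Rsad2 went from 4 UMIs (1.09 CPM) in S3 to 149 (32.2 CPM) in D3, a log2 ratio of 4.88 [3.49, 6.77]. Ifit1, which binds viral RNA caps, went from 8 to 101 UMIs (3.32), Ifit3 from 33 to 188 (2.17), Ifit2 from 18 to 87 (1.93) and Oas1a from 10 to 64 (2.34). Oasl1, a relative of the OAS enzymes that acts on Irf7 mRNA, had 1 UMI in S3 and 36 in D3. With so few S3 counts these ratios are wide, and those of Rsad2 and Oasl1 rest on 4 and 1 molecules.

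Ifi27l2a carried the most RNA. It stood at 142 UMIs (38.8 CPM) in S3 and 2300 (497 CPM) in D3, a log2 ratio of 3.68 [3.43, 3.93], and its share of the class's member UMIs at D3 was 27.5%. Isg15 went from 93 to 442 UMIs (25.4 to 95.5 CPM, log2 1.91 [1.58, 2.25]) and Bst2 from 612 to 1478 (167 to 319 CPM, log2 0.93 [0.79, 1.07]). Bst2 had been the leading member in S3, with 23.6% of member UMIs. The 3 genes were clear of counting error, with Bst2 just short of the 2-fold bound.

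Of the signalling members, Irf7 went from 18 to 229 UMIs (4.92 to 49.5 CPM), a log2 ratio of 3.33 [2.64, 4.11], whereas Stat2 (0.66) and Irf9 (0.42), partners in the factor that binds the ISRE, were within 2-fold. Among the sensors Zbp1, a sensor of Z-form nucleic acid, was higher at 142 against 14 UMIs (3.00), while the RNA helicases Ifih1 (0.63), Dhx58 (0.21) and Ddx58 (0.09) were within 2-fold. The p200 gene Ifi204 was at 222 against 28 UMIs (2.65), and Ifi211 at 33 against 0, at least 3.12 on the log2 scale from the floor of 3 UMIs. Of the GTPases, Gbp2 (2.57) and Ifi47 (2.83) were higher, and Irgm1 (−0.17) and Igtp (101 against 109 UMIs, −0.45 [−0.86, −0.05]) were not. The difference was therefore uneven within the list, and it ran through all roles except that most sensors and the partners of the ISRE factor were within 2-fold.

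**Figure D2:**
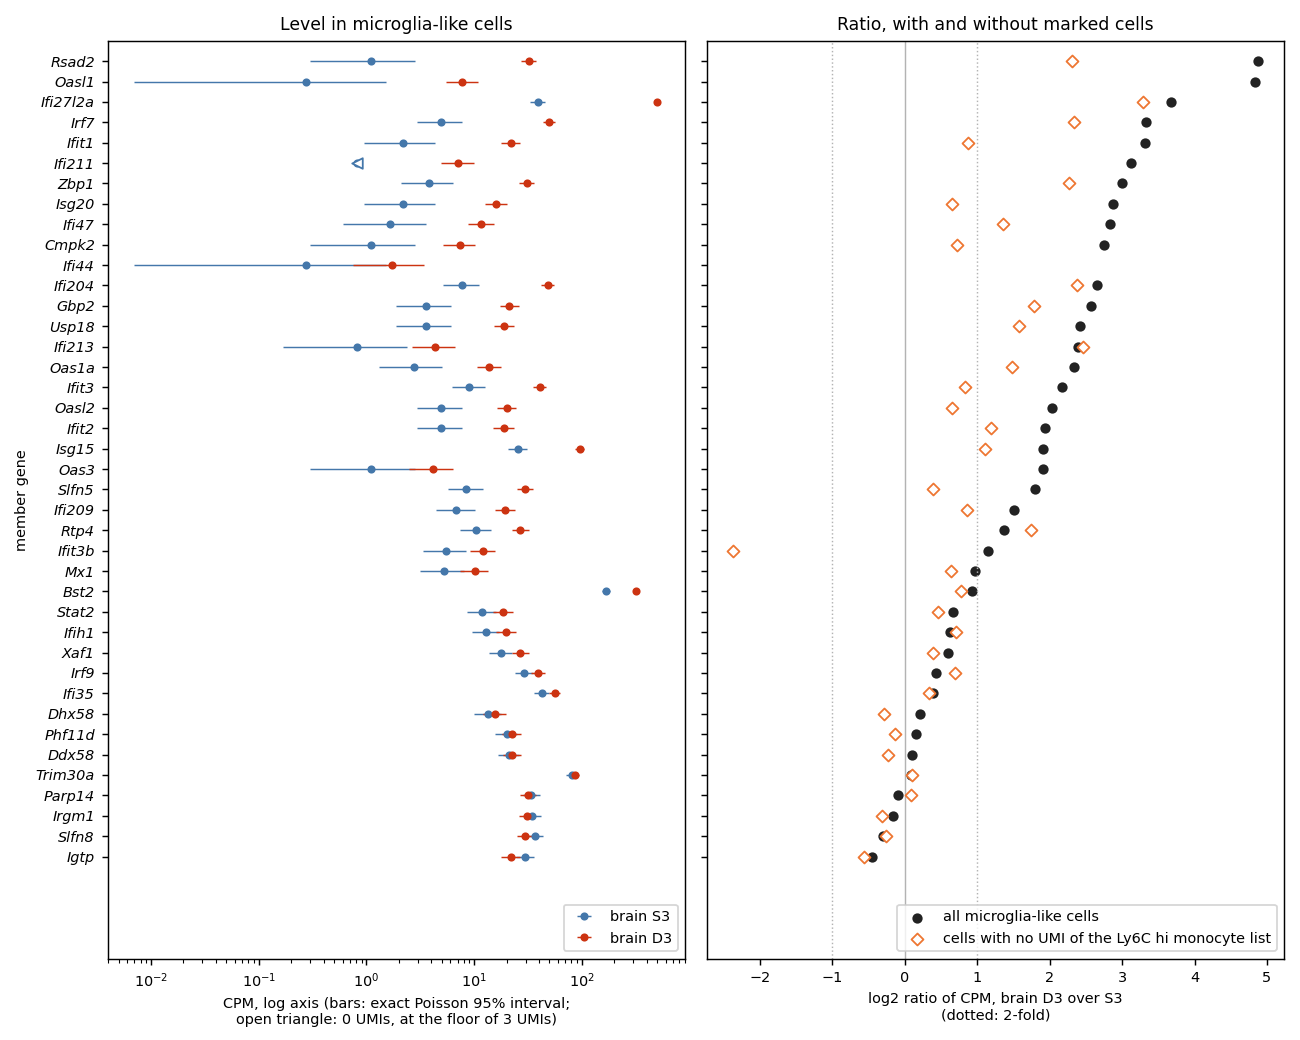
Members in microglia-like cells of the brain. Left, CPM on a log axis in S3 (blue) and D3 (red) with exact Poisson 95% intervals; right, log2 ratio of D3 over S3 in all microglia-like cells (black points) and in cells with no UMI of the Ly6C hi monocyte list (open diamonds). The black points lie at or above the diamonds for most members in the upper part, where Rsad2 is at 4.88 with all cells and at 2.30 without the marked ones.

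Members with and without an ISRE core match in the window searched had similar medians in microglia-like cells. The 8 members with no promoter at hand, among them Ifi27l2a, Zbp1 and Ifi204, are in neither group. Any part of the motif in the difference was not tested. Of the 19 members with an ISRE core in a promoter, all were tested in microglia-like cells, 11 were higher at D3 and their median was 1.80. Of the 13 matched members without one, 12 were tested, 8 were higher and the median was 1.98.

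Other cell types' RNA moved together with this difference. In microglia-like cells the Ly6C hi monocyte markers summed to 31.5 CPM in S3 (7 of 8 detected, F10 at 0) and 146 in D3 (8 of 8), the T cell list to 17.5 and 48.2, the NK list to 13.9 and 41.3, and the proliferation list to 9.60 and 361. The share of cycling cells was 0.3% and 7.0%. The neutrophil list stood at 449 and 452 CPM, and the list for the stress of tissue dissociation was lower at D3, at 28835 against 18214 CPM. The members were then read in restricted sets of cells, added after the values had been seen. A limit on marker UMIs also selects cells by depth, so the part of other cell types' RNA alone was not measured.

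With only cells that held no UMI of the Ly6C hi monocyte list, 269 of D3 and 281 of S3, 13 of 36 members were higher and 1 lower, the median was 0.71, and member RNA was 1324 against 698 CPM. The background was 3.78% of genes higher and 4.13% lower, with an all-gene median of −0.08. The 269 and 281 cells had medians of 7191 and 9106 UMIs. Ifi27l2a then stood at 835 against 94 UMIs (3.28), Irf7 at 74 against 16 (2.34), Ifi204 at 90 against 19 (2.38), Zbp1 at 35 against 8 (2.26), Isg15 at 153 against 78 (1.10 [0.70, 1.52]) and Bst2 at 682 against 436 (0.78). Rsad2 was reduced to 9 against 2 UMIs, and Ifit3b turned to 3 against 17 (−2.37). Without cycling cells, 366 of S3 and 385 of D3 remained, with 24 of 39 members higher, a median of 1.69, and 5.42% of all genes higher and 4.02% lower.

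A limit of 1 UMI from the T, gamma-delta T, NK and B lists left 287 cells of D3 and 213 of S3, with 21 of 38 members higher and a median of 1.34 beside 5.36% of genes higher and 4.02% lower. Under both limits together, on 201 and 171 cells, 8 of 32 members were higher and 1 lower, with a median of 0.49 beside 3.96% of genes higher and 3.94% lower, and member RNA was 1390 CPM in D3 against 818 in S3. The excess of member RNA in D3 was thus smaller in each restricted set than in all cells, and present in all of them.

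The difference was concentrated in few cells. The median microglia-like cell held 4 members in both libraries, and the cell at the 90th percentile held 8 in S3 and 14 in D3. The top 10% of cells by member level, 37 in S3 and 42 in D3, held 31.4% of member UMIs in S3 and 56.0% in D3. Without them the levels were 540 and 942 CPM. The 156 microglia-like cells of D3 with 6 or more members had a median of 12848 UMIs against 6937 in the other 258, and 16.0% against 1.6% of them were cycling. Beyond the members, the genes highest in those cells over the others were Ccnd2 (log2 6.07), a cyclin, and the lymphocyte genes Trbc2, Ms4a4b, Ctsw, Itgb7, Runx3, Nkg7 and Il2rb. Among the 77 cells with 10 or more members, the leading genes included Ifitm1 (3.80) and Ifitm3 (3.12), which are interferon-inducible, and Ly6c2 (3.76) and Plac8 (3.53), which mark Ly6C hi monocytes. One D3 cell of the class held all 40 members.

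Genes of the pathway outside the 40 were read from fixed lists. In microglia-like cells 18 of 37 other interferon-stimulated genes were higher at D3 and 0 lower (median 0.97), beside 7.08% of all genes higher and 4.31% lower. Among them Ifitm3, which keeps virus from entering at endosomes, was at 1597 against 148 UMIs (3.09) and Oas2 at 26 against 1. Of the interferon gamma targets 6 of 10 were higher (median 1.08). The chemokine gene Cxcl10 was at 1549 against 476 UMIs (1.36). The parts of the pathway upstream did not show this: 0 of 5 receptor genes, 0 of 10 signalling genes and 0 of 6 feedback genes were higher or lower, with medians of −0.07, −0.18 and 0.10, and of the sensing genes 1 of 12 was higher and 1 lower. Irf1 stood at −0.40 and Ifngr1 at −0.28. The 20 core type I members, a subset of the 40, had 15 of 19 higher and a median of 2.03. All these lists were read in all microglia-like cells and not in the restricted sets, so the part of other cell types' RNA in them was not tested.

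In T-like cells of the brain, 15 of 39 members were higher at D3 and 0 lower, with a median of 0.80 beside 0.07 over all genes, of which 5.38% were higher and 5.87% lower. Isg15 stood at 188 UMIs in the 150 cells of D3 and 367 in the 658 cells of S3, 185 against 68.8 CPM (log2 1.42 [1.16, 1.68]), and Irf7 at 108 against 224 UMIs (1.34). The RNA exonuclease gene Isg20 was at 79 against 113 UMIs (1.87) and Ifi204 at a log2 ratio of 2.85. By the pathway lists, 10 of 19 core type I members (median 1.01) and 8 of 36 other interferon-stimulated genes (median 0.30) were higher in this class, and 0 of 5 receptor genes. Here too a few cells held much of the RNA: 15 of the 150 D3 cells held 48.8% of member UMIs, and without the top 10% the levels were 1302 CPM in D3 and 1189 in S3. The border macrophage markers in these T-like cells were at 889 CPM in D3 against 273 in S3, and H2-Aa, H2-Eb1 and Cd74, genes of antigen-presenting cells, were among the leading genes of the D3 T-like cells with 6 or more members. The part of such RNA in the difference was not tested.

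Neutrophil-like and NK/ILC1-like cells of the brain had lower medians from all UMIs. In neutrophil-like cells 8 of 37 members were higher and 1 lower, with a median of 0.44 beside 0.09, and 11.9% of all genes were higher and 5.11% lower, so that the count lay above the background by less than in the classes above. With cells thinned the neutrophil-like median was 0.98 with 14 members past 2-fold, and with cells weighted equally 0.92 with 17, so its place among the classes is not fixed. Usp18, the protease that removes ISG15, was at 48 UMIs in D3 against 14 in S3 (2.15), Bst2 at 130 against 56 (1.59) and Ifit1 at 98 against 53 (1.26). Ifi27l2a was lower, at 576 against 1032 CPM. Without the top 10% of cells the member level was 2005 CPM in D3 and 2023 in S3. Border macrophage markers in neutrophil-like cells stood at 2479 CPM in D3 and 1307 in S3. In neutrophil-like cells with no UMI of the Ly6C low monocyte list other than Pglyrp1, a set added after the values had been seen, 14 of 35 members were higher and 0 lower in brain (median 0.78, 14.8% and 5.85%), and member RNA was 3404 CPM in D3 against 2639 in S3. In NK/ILC1-like cells 11 of 39 were higher and 1 lower (median 0.38 beside 0.00, 3.78% of genes higher and 5.94% lower). Slfn5 (2.84), Ifi204 (1.88) and Ifit1 (1.72) were highest and Irgm1 lowest at 7 against 58 UMIs (−1.66). Without the top 10% of cells the member level was 749 CPM in S3 and 741 in D3.

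Border macrophage-like cells of the brain, 405 in D3 and 329 in S3, had 7 of 40 members higher and 0 lower, with a median of 0.31 beside −0.06, where 3.00% of all genes were higher and 5.09% lower. The count of members past 2-fold was 1 with a stricter gate margin, 3 with cells weighted equally and 4 with cells thinned to 2000 UMIs. The higher members were all among the 20 core type I members. Ifi44 went from 4 to 36 UMIs (2.86), Ifit2 from 65 to 233 (1.53), Cmpk2, a mitochondrial nucleotide kinase gene next to Rsad2, from 19 to 66 (1.48), Ifit1 from 73 to 197 (1.12) and Ifit3 from 199 to 521 (1.08). The remaining higher members were Ifit3b (1.29) and Oas3 (1.12). Ly6C hi monocyte markers in border macrophage-like cells were at 407 CPM in S3 and 584 in D3. Split by the Lyve1 list, Lyve1+ macrophage-like cells had 1 of 38 higher (median −0.04, with 4.15% of genes higher and 5.52% lower) and Lyve1− macrophage-like cells, richer in MHC class II, 4 of 40 (median 0.25, with 2.55% and 6.85%). Whether the subsets differ was not tested.

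In monocyte-like cells of the brain the members did not stand higher at D3. Ly6C hi monocyte-like cells, 312 in D3 and 235 in S3, had 0 of 40 higher and 1 lower, with a median of −0.12 beside −0.08 and 5.63% of genes higher and 5.49% lower. The lower member was Stat2, at 125 against 200 UMIs (−1.07). In Ly6C low monocyte-like cells, the patrolling subset, 21 of 37 members were lower and 0 higher (median −1.18 beside 0.03, 6.81% of genes higher and 4.65% lower), led by Ifit3 at 6 against 42 UMIs (−4.23), with Irf7 at 105 against 116 (−1.57). That comparison rests on 61 cells of S3, of which 7 held 59.1% of the member UMIs. Without the top 10% of cells the levels were 1765 CPM in S3 and 1318 in D3, and those of the core type I members 384 and 342.

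Conventional DC and B-like cells of the brain stood near their background. In cDC2-like cells 2 of 40 members were higher, Ifi44 (1.62) and Ifit1 (98 against 36 UMIs, 1.19), and 2 lower, Gbp2 (−1.01) and Rsad2 (107 against 225, −1.33), with a median of 0.09 and 3.45% and 7.62% of genes past the bounds. B-like cells had 0 higher and 4 lower of 31 (median −0.17, 7.46% and 9.40%), and immature neutrophil-like cells 5 higher and 1 lower of 34 (median 0.14, 12.6% and 4.61%). Across the 10 brain classes compared, the member median lay above the all-gene median in 7.

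**Figure D3:**
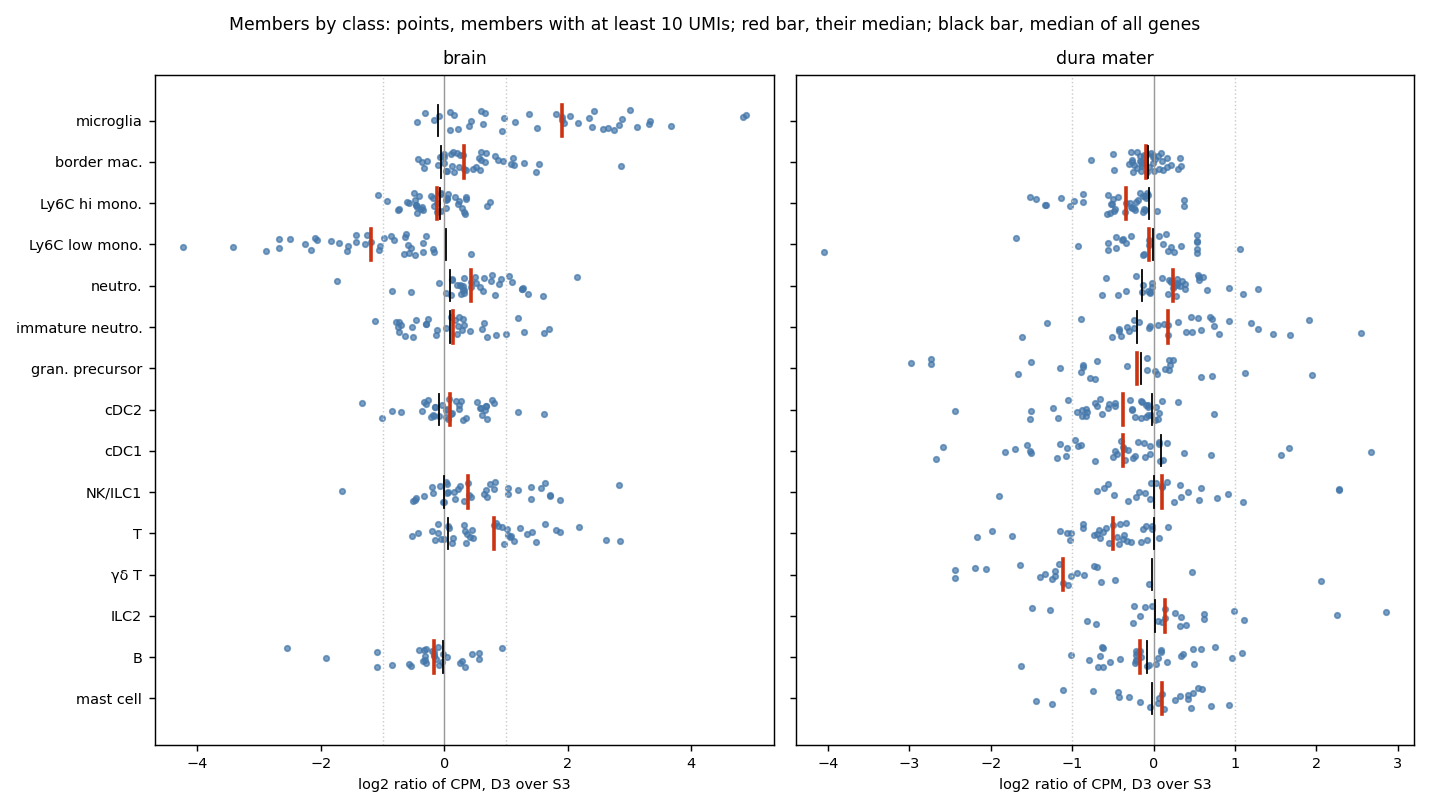
Log2 ratio of D3 over S3 in each class of brain (left) and dura mater (right). Each point is a member with at least 10 UMIs, the red bar the member median and the black bar the median of all genes; the brain microglia row reaches 4.88 with its median at 1.91, the brain Ly6C low monocyte row has a median of −1.18, and the rows of border macrophages of dura mater lie close to 0.

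In the dura mater the members were not higher at D3 in border macrophage-like or Ly6C hi monocyte-like cells. Border macrophage-like cells, 728 in D3 and 476 in S3, had 0 of 40 members higher and 0 lower, with a median of −0.10 beside −0.06, where 2.55% of all genes were higher and 3.45% lower. Isg15 was at 194 CPM in D3 and 180 in S3, Irf7 at 128 and 154, and Bst2 at 693 and 822. Ifi27l2a was at 1107 against 987 CPM. These levels were within 2-fold of each other for every member. Within the class, Lyve1+ macrophage-like cells had 1 member higher, Ifi44 (1.14), and 0 lower (median −0.06, 3.30% of genes higher and 3.56% lower), and Lyve1− macrophage-like cells 0 higher and 0 lower (median −0.13, 3.31% and 2.73%). Set against each other in S3 dura mater, Lyve1+ cells had 2 of 40 members below Lyve1− cells, Isg20 (−1.61) and Ifi44 (−1.64), and 0 above (median −0.14 beside 0.21, 12.4% and 5.20%).

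Ly6C hi monocyte-like cells of the dura mater had 6 of 39 members lower and 0 higher (median −0.34 beside −0.06, 2.84% of genes higher and 4.23% lower). Rsad2 was at 96 UMIs in D3 against 280 in S3 (−1.51) and Ifit3 at 110 against 280 (−1.31), with Oasl1 (−1.44), Ifit3b (−1.34), Phf11d (−1.14) and Ifit2 (−1.02) also lower. Of the core type I members, 5 of 19 were lower with a median of −0.49, against 1 of 39 other interferon-stimulated genes. In cDC2-like cells 6 of 40 were lower and 0 higher (median −0.38 beside −0.02, 3.41% higher and 4.56% lower), among them Ifit3b (−2.44), Cmpk2 (−1.52) and Ifit3 (−1.51), but 21 of the 201 cells of S3 held 43.6% of its member UMIs and without the top 10% the levels were 1763 CPM in S3 and 1748 in D3. In cDC1-like cells 11 were lower and 3 higher of 40 (median −0.37 beside 0.09, 3.84% lower and 7.43% higher), with Isg15 at 92 against 212 UMIs (−1.70) and Irf7 at 134 against 271 (−1.52), but 4 of the 34 cells of S3 held 61.7% of its member UMIs and without the top 10% the levels were 1313 CPM in S3 and 1306 in D3.

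T-like cells of the dura mater had 7 of 33 members lower and 0 higher (median −0.50 beside 0.01, 3.77% of genes higher and 5.15% lower), the opposite direction to those of the brain, although the difference between the tissues was not tested. Isg15 was at 44 UMIs in 81 cells of D3 against 146 in 122 cells of S3 (−1.01), Ifit1 at 5 against 37 (−2.17), and Mx1 at 0 against 11. Without the top 10% of cells the levels were 1236 CPM in D3 and 1475 in S3. In gamma-delta T-like cells 14 of 23 were lower and 1 higher (median −1.12 beside −0.02, 5.10% higher and 7.17% lower), where 6 of 53 S3 cells held 58.8% of the member UMIs and without the top 10% the levels were 510 and 749 CPM. Neutrophil-like cells had 2 of 35 higher, Ifih1 (1.28) and Gbp2 (1.10), and 0 lower (median 0.24 beside −0.14, 4.45% higher and 6.62% lower), and without cells that held Ly6C low monocyte UMIs other than Pglyrp1, 3 of 34 higher and 1 lower (median 0.25, 4.78% and 7.87%). Immature neutrophil-like cells had 6 of 35 higher, led by Ifi211 (2.55), and 2 lower (median 0.18, 3.24% and 6.36%), with Bst2 at 68 against 252 UMIs (−1.61).

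In granulocyte precursor-like cells of the dura mater, 50 of S3 and 24 of D3, 6 of 26 members were lower and 2 higher (median −0.21, 9.66% of genes lower and 2.67% higher). Of the remaining dura mater classes, ILC2-like cells had 3 of 23 higher and 2 lower (6.03% and 4.60%), NK/ILC1-like cells 3 and 1 of 26 (4.18% and 4.80%), B-like cells 1 and 2 of 33 (3.04% and 6.63%), mast cell-like cells 0 and 3 of 23 (4.88% and 4.68%) and Ly6C low monocyte-like cells 1 and 2 of 28 (5.94% and 6.98%). Across the 14 dura mater classes the member median lay above the all-gene median in 5.

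Read gene by gene over the classes with enough UMIs, some members differed in more classes than others. In the brain Ifit1 was higher at D3 in 6 of 8 classes and lower in 0 (median of its class ratios 1.15), Usp18 higher in 5 and lower in 1 of 10 (1.06), Ifit3 higher in 5 and lower in 1 of 10 (0.82), and Ifi44 higher in 3 of 4. Ifi27l2a, the member with the most RNA in microglia-like cells of D3, was higher in that class alone, lower in 1, and had a median of −0.24 over 10 classes. Irgm1 was lower in 3 of 10 and higher in 0. In the dura mater Isg15 was lower in 3 of 14 classes and higher in 0 (median −0.44), Ifit1 lower in 3 of 9 and higher in 0, and Mx1 lower in 3 of 6 and higher in 0. The classes of a library share its preparation and depth and are not replicates.

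Without injury the 2 tissues differed in their macrophages. Border macrophage-like cells of S3 brain had 12 of 40 members lower than those of S3 dura mater and 0 higher, all 40 lay below 0, and the median was −0.64 beside −0.20, with 4.10% of all genes higher and 8.37% lower. Ifit3 stood at 199 UMIs in brain against 737 in dura mater (−1.33), Irf7 at 314 against 934 (−1.01), Ifit2 at 65 against 336 (−1.81), Cmpk2 at 19 against 148 (−2.40) and Ifi44 at 4 against 37 (−2.65). With all cells the counts were alike within each subset: Lyve1+ macrophage-like cells had 12 lower with all 40 below 0 (median −0.63, 5.03% of genes higher and 8.32% lower), and Lyve1− macrophage-like cells 12 lower with 38 below 0 (median −0.60, 3.51% and 6.48%). Without the top 10% of cells the member level was 2437 CPM in brain and 3081 in dura mater. The core type I members, among them the 5 genes just named, were at 720 CPM in brain and 1280 in dura mater with all cells. Without the 10% of cells highest in core members they were at 447 and 529. In Lyve1− macrophage-like cells the core levels were 842 and 1428 with all cells, and 537 and 531 without those top cells. In Lyve1+ macrophage-like cells they were 607 and 1201, and 370 and 537. Microglia markers in border macrophage-like cells were at 3439 CPM in brain and 2076 in dura mater, where Sall1 was at 0, and their part in the difference was not tested. Of other interferon-stimulated genes 11 of 39 were lower in brain (median −0.74), whereas the 5 receptor genes tested were within 2-fold (median 0.24).

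Other S3 classes did not share one direction between the tissues. T-like cells had 9 of 38 members lower and 1 higher in brain (median −0.71 beside −0.22, 4.98% of genes higher and 9.61% lower), gamma-delta T-like cells 11 of 22 lower and 0 higher (median −0.99, 5.77% and 7.30%) and cDC2-like cells 6 lower and 1 higher (median −0.47, 2.79% and 4.95%). Immature neutrophil-like cells had 16 of 32 higher and 2 lower in brain (median 0.92, 8.31% higher and 12.2% lower) and neutrophil-like cells 6 of 38 higher and 0 lower (median 0.35, 9.28% and 3.89%). Ly6C hi monocyte-like cells had 1 higher and 0 lower (median 0.28, 2.12% and 3.89%), and Ly6C low monocyte-like cells 12 higher and 1 lower of 35 (median 0.61, 5.45% and 6.88%), the latter again with the 61 cells of brain S3 named above. NK/ILC1-like cells had 4 higher and 3 lower (median 0.04, 6.15% and 5.09%), ILC2-like cells 2 and 2 of 20 (median 0.12, 4.38% and 9.05%) and B-like cells 1 higher and 2 lower (median −0.27, 4.20% and 11%, the all-gene median being −0.26).

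Brain D3 held a class of infiltrating macrophage-like cells, 682 cells with a median of 23038 UMIs, that had no more than 2 cells in any other library. Against Ly6C hi monocyte-like cells of the same library, known as their blood-borne precursors, they had 13 of 40 members lower and 1 higher (median −0.79 beside −0.03, 12.8% of genes lower and 13.5% higher). Ifi27l2a was at 407 CPM against 1225 (−1.59), and Gbp2 (−2.01), Ifi209 (−1.97) and Oas3 (−1.56) were also lower, while Bst2 was the member higher, at 747 against 342 CPM (1.13). Mixed-marker macrophages, 529 cells that matched the border list together with infiltrating macrophage markers, had all 40 members above the infiltrating class, 6 of them at least 2-fold (median 0.59 beside 0.04, 9.20% of genes higher and 2.96% lower): Ifi44 (2.06), Ifit3b (1.91), Gbp2 (1.30), Mx1 (1.03), Ifit2 (1.02) and Ifi27l2a (1.01). These classes were cut from per-cell scores and are ranges rather than types, and 73 macrophages of the library lay within 0.02 of the cut.

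Counted per cell, 6 or more members were found in 49.5% of placed cells in S3 brain, 54.8% in S3 dura mater, 70.3% in D3 brain and 69.5% in D3 dura mater. The D3 libraries were deeper, and with each cell thinned to 2000 UMIs the shares were 11.2%, 13.5%, 17.1% and 17.5%. The order of the libraries was nearly the same, and the sizes fell with depth. Nearly all Ly6C hi monocyte-like cells passed, at 97.9%, 96.6%, 95.5% and 95.2%, and after thinning 46.8%, 29.6%, 35.9% and 26.4%. Border macrophage-like cells passed in 86.6%, 87.0%, 86.4% and 93.3%, or between 23.2% and 30.9% thinned. In microglia-like cells the share was 25.1% [20.7, 29.8] in S3 and 37.7% [33.0, 42.5] in D3, and thinned 1.6% and 4.8%. With 10 or more members it was 4.1% and 18.6%, so the difference between the libraries was wider in cells with many members.

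**Figure D4:**
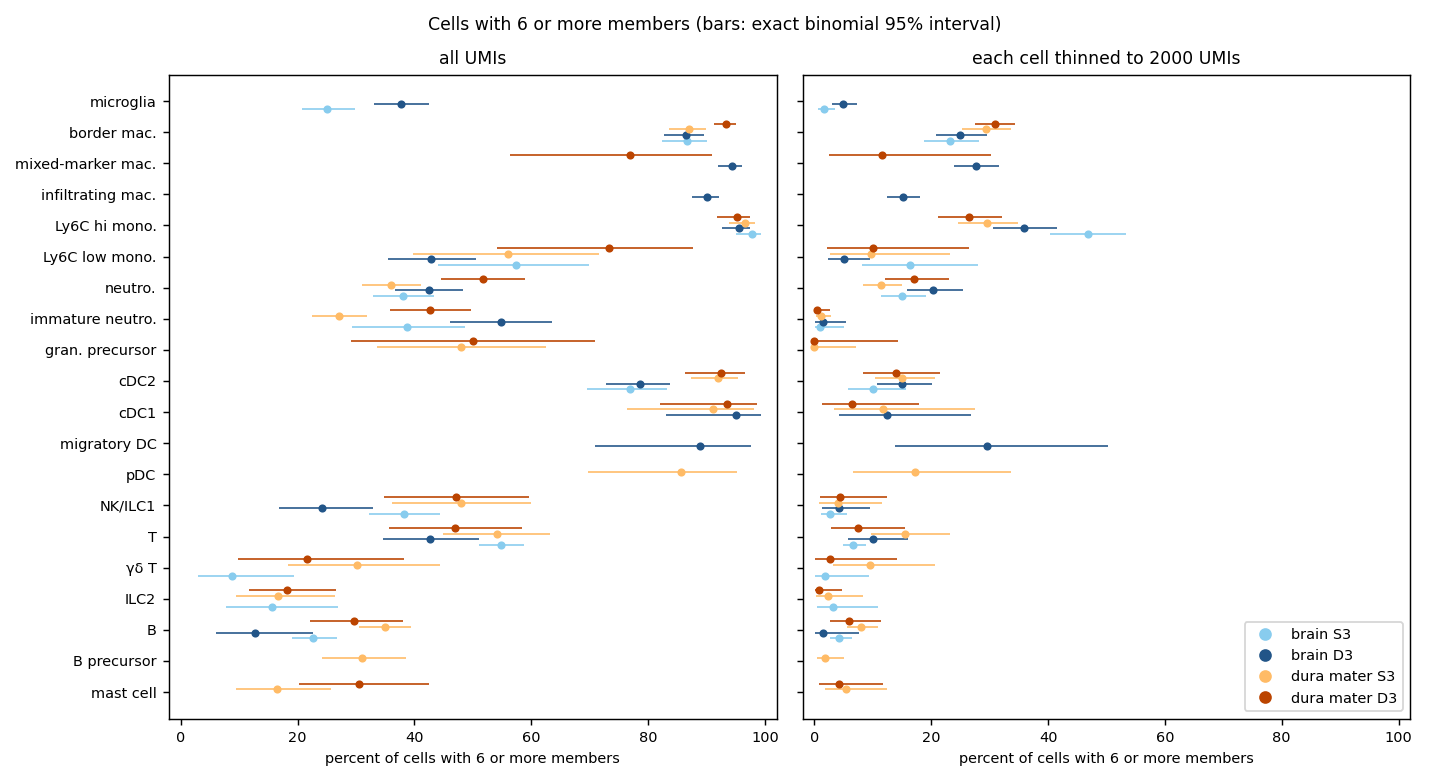
Share of cells with 6 or more members in each class and library, with exact binomial 95% intervals, from all UMIs (left) and with each cell thinned to 2000 UMIs (right). Ly6C hi monocytes and border macrophages stand above 85% on the left in all 4 libraries, and on the right between 23.2% and 46.8%, with neutrophils at 11.3% to 20.3%.

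Depth changed the order of some classes. Immature neutrophil-like cells of brain D3, with a median of 18569 UMIs, had 6 or more members in 54.9% of cells, above the 42.5% of neutrophil-like cells with a median of 3844, but after thinning the shares were 1.5% and 20.3%. In NK/ILC1-like cells of brain the share was 38.1% in S3 and 24.2% in D3 from all UMIs, and 2.7% and 4.2% after thinning, with overlapping intervals. T-like cells of brain were likewise at 54.9% and 42.7%, and thinned at 6.7% and 10.0%. No order is read from shares whose direction turned with depth.

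Cells with many members also differed from the rest of their class in other genes. In Ly6C hi monocyte-like cells with 10 or more members the chemokine genes Cxcl10 and Ccl5 were among the leading genes, at log2 ratios of 5.81 and 5.78 in dura mater S3, 3.60 and 4.24 in brain D3, and 3.84 and 3.92 in dura mater D3. The ratios of Cxcl10 rest on 2, 12 and 4 UMIs in the other cells. Ccl5 was among the leading genes in 7 of the class and library settings compared, and Ly6a, itself interferon-inducible, in 5. In NK/ILC1-, T- and B-like cells with 6 or more members the leading genes included, in some of the libraries, those of dividing cells. Of these, Pclaf, Ube2c, Mki67 and Top2a were among the leading genes in 3, 5, 4 and 4 of the settings over all classes. In neutrophil-like cells the leading genes included those of monocytes and antigen-presenting cells, such as Ccr2, H2-Eb1 and Cd74. The part of cell division and of depth in these lists was not tested.

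Of the 21 interferon genes searched for, 4 were listed in the files. Ifnb1, the interferon beta gene, was found in border macrophage-like cells of the brain, with 87 UMIs in S3 and 68 in D3, against 0 and 1 in those of the dura mater. In S3 the brain was at least 5.42 higher on the log2 scale, from a floor of 3 UMIs, and within the brain D3 stood below S3 at −0.67 [−1.15, −0.19]. Nearly all of it lay in Lyve1− macrophage-like cells, with 84 UMIs (35.3 CPM, in 12.2% of cells) in S3 and 65 (27.2 CPM, 12.5%) in D3. B-like cells of all 4 libraries together had 0 UMIs of Ifnb1 and T-like cells 1. The border macrophage-like cells of S3 dura mater, with 0 UMIs of Ifnb1, had higher member levels than those of S3 brain. Any link between Ifnb1 and the members was not tested.

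Ifng, the interferon gamma gene, was at 483, 353, 864 and 113 CPM in NK/ILC1-like cells of brain S3, dura mater S3, brain D3 and dura mater D3, and at 240, 128, 453 and 215 CPM in T-like cells. In both classes brain D3 was the highest library. B-like cells, which do not usually express it, had between 0 and 3.47 CPM in at most 1.84% of cells. Cxcl10, a target of both interferons, was highest among the brain classes in Lyve1− macrophage-like cells, at 536 CPM in S3 and 544 in D3.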

How the data were processed

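CD45+ single cells of 4 libraries, 1 per condition, were analysed. The authors aligned the reads to mm10 with Cell Ranger 3.1.0 and built the matrices in Seurat 3.1.0. As the deposited unit is a natural log, of 1 plus UMIs per 10000 in each cell, and raw UMIs had been assumed in planning, UMIs were recovered by taking the lowest nonzero entry of each cell as 1 UMI (100% whole within 1e-06). A gene not listed in a file counted as 0.

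Cells had 1000 to 6000 detected genes and no more than 7% mitochondrial UMIs. Scrublet (scanpy 1.11.5) by its own threshold marked under 0.5% of each library, so the top scores, at 0.8% per 1000 barcodes, were removed instead. A cell took the class of its best marker list, with a score of at least 0.25, at least 3 markers and a lead of 0.05. Scores of 0.3 or more on a list of another lineage led to exclusion, a cut chosen after the values were seen. Border macrophages were split by infiltrating (0.25) and Lyve1 (0.3) scores. Classes with at least 20 cells are given.

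CPM is the UMIs of a gene over all UMIs of the class. Ratios carry exact conditional intervals, a gene at 0 was set to a floor of 3 UMIs, and calls needed a 2-fold difference and 10 or more UMIs summed over the groups. For shares, each cell was also thinned to 2000 UMIs. The 40 members, the pathway lists and the markers were chosen with earlier results of these data known. Genes named were members, genes of the pathway lists and up to 10 leading genes of cells with many members, given at least 30 cells on each side and 50 UMIs. The steps were tested on simulated data. Python 3.11.15, numpy 2.4.6, pandas 2.3.3, scipy 1.17.1 and matplotlib 3.10.9 were used. Promoters were RefSeq's on GRCm38.p6 and gene positions GENCODE vM21's, the build of the files. Other filters, gates, weights, depths and restricted sets of cells were tried.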

Additional observations from a re-analysis of the deposited data

Results flagged for a closer look

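In 3 classes the member median pointed one way in the brain and the other way in the dura mater. For T-like cells the median log2 ratio of D3 over S3 was 0.80 in the brain and −0.50 in the dura mater, for border macrophage-like cells 0.31 and −0.10, and for cDC2-like cells 0.09 and −0.38. These differences between tissues were not tested, since each rests on 4 libraries of 1 each.

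Cells that passed the filters but matched no class, or matched markers of more than one lineage, held many members although no comparison uses them. Of these, 85.4% in brain D3 had 6 or more members, against 73.5% in brain S3, with medians of 17683 and 13856 UMIs per cell. In the dura mater the shares were 78.0% in D3 and 66.4% in S3, with medians of 16789.5 and 10847 UMIs. The part of depth in these shares was not tested.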

How the results depend on the processing

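No paired analysis was possible because each condition has 1 library, and for the same reason no replicate could be left out. Of the alternatives, 175 of the main medians, counts and shares stayed within their bounds and 53 did not, and for single genes 557 stayed, 93 moved and 6 turned direction. The cause of the moves below was not tested. In microglia-like cells of brain the median was 1.31 with doublets kept, 0.90 with cells thinned to 2000 UMIs, 0.71 in cells with no Ly6C hi monocyte UMI, 1.34 with at most 1 lymphocyte UMI and 0.49 with both limits. The count of members past 2-fold in either direction was 14 thinned, 14 without Ly6C hi monocyte UMIs and 9 with both limits. Ifit3b turned to −0.048 with the cut on other lineages at 0.15, −2.37 without Ly6C hi monocyte UMIs and −3.22 with both limits, Ifih1 to −0.067 thinned and Slfn5 to −0.072 with both limits. In Ly6C hi monocyte-like cells of brain the median was −0.49 with a stricter gate margin, and the count was 2 with that margin, 2 with the cut at 0.15, 2 with cells weighted equally and 0 after centring on all genes. In neutrophil-like cells of brain the median was 0.92 with equal weights, 0.98 thinned and 0.78 without Ly6C low monocyte UMIs, with counts of 17, 14 and 14, and Ifit2 turned to −0.86 with the cut at 0.15. In neutrophil-like cells of dura mater the count was 6 without the filter on cells, 4 with the stricter margin, 4 with equal weights, 6 thinned, 1 with at least 50 UMIs and 4 without Ly6C low monocyte UMIs. In border macrophage-like cells the count was 1 with the stricter margin, 3 with equal weights and 4 thinned in brain, and 1 thinned in dura mater. The median of cDC2-like cells of dura mater was −0.86 with the stricter margin.

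The share of cells with 6 or more members, in the order brain S3, dura mater S3, brain D3 and dura mater D3, was 46.4%, 49.7%, 68.8% and 64.6% without the filter on cells and 11.2%, 13.5%, 17.1% and 17.5% thinned. With 4 or more members it was 71.7%, 71.7%, 84.3% and 83.6%, with 10 or more 24.0%, 31.9%, 48.0% and 48.6%, and with 6 or more core members 12.4%, 15.8%, 28.2% and 25.3%. It was 51.8% in brain S3 with other lineages kept, 52.2% in dura mater S3 with the cut at 0.15, and 65.6% in brain D3 with the stricter margin. The restricted sets of cells and both changes to the lineage cut were chosen after the data were seen. Depth limits members with few UMIs: a gene at 0 UMIs in microglia-like cells is known only to lie below 3 UMIs.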
